A study of Mus musculus with 6 samples.

Results

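The CCN family holds 6 secreted matricellular proteins, Ccn1 to Ccn6 (older names Cyr61, Ctgf, Nov, Wisp1, Wisp2 and Wisp3). Its members were taken by Ensembl gene identifier from 21603 genes measured in ribosome-associated RNA of mouse lung pericytes, and all 6 were found. RiboTag mice carry an Rpl22 allele that gains an HA tag after Cre recombination, so that an anti-HA pull-down yields the transcripts that ribosomes of those cells carried. The 3 Yap1,Wwtr1 iPCKO samples came from C57BL/6 lungs at postnatal day 8 with both copies of Yap1 and Wwtr1 floxed (Yap1-/-;Wwtr1-/- in the labels), after tamoxifen from P0 to P2. The 3 controls, of the same strain and age, also carried the Pdgfrb(BAC)-CreERT2 transgene and the Rpl22 allele, but were heterozygous for the floxed alleles of both genes (Yap1+/-;Wwtr1+/-). The comparison is therefore between cells with 1 functional copy of each gene and cells meant to have none. The Cre is driven by Pdgfrb, which lung mesenchymal cells other than pericytes can also express.

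CCN proteins are released into the extracellular matrix, where they bind integrins, proteoglycans, LRP receptors and growth factors and modify how cells respond to them. Ccn1 and Ccn2 are textbook targets of YAP1 and TAZ (the product of Wwtr1), co-activators that reach DNA through TEAD transcription factors. Ccn4, Ccn5 and Ccn6 were first described as WNT1-inducible signalling proteins, and Ccn3 was found as a gene overexpressed in nephroblastoma. The proteins share an insulin-like growth factor binding domain, a von Willebrand factor C domain, a thrombospondin type 1 repeat and, except in Ccn5, a C-terminal cystine knot.

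The gene models differ accordingly. Translated from the GENCODE M21 coding sequences on GRCm38, Ccn5 has 251 residues with 29 cysteines, and the other members have 348 to 379 residues with 37 to 40 cysteines. Each has 5 exons in its longest coding transcript. Over aligned residues, Ccn1 and Ccn2 were the most alike pair with 51.5% identity, and Ccn5 and Ccn6 the least alike with 38.2%. Ccn1 (ENSMUSG00000028195) lies at chr3:145646976-145649981 on the minus strand and Ccn2 (ENSMUSG00000019997) at chr10:24595442-24598683 on the plus strand. Ccn3 (ENSMUSG00000037362, chr15:54745702-54754039) and Ccn4 (ENSMUSG00000005124, chr15:66891320-66923201) are both on the plus strand of chromosome 15. Ccn5 (ENSMUSG00000027656) is at chr2:163820861-163833146, plus strand, and Ccn6 (ENSMUSG00000062074) at chr10:39150970-39163794, minus strand. Ccn2 overlaps Gm15270 and Ccn6 overlaps Tube1, each on the opposite strand. The kit keeps strand, but the strand setting used in counting is not stated, so the values of Ccn2 and Ccn6 are uncertain to that extent.

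Promoter sequence was at hand for 2 of the 6 members, Ccn1 and Ccn6, from RefSeq (GRCm38.p6). The 250 bases before each start site are shown because TEAD factors recognise the letters GGAATG, searched on both strands, and capitals mark the match. In Ccn1 the match is on the other strand, so that it appears as its reverse complement. The Ccn1 stretch is chr3:145649986-145650235 and the Ccn6 stretch chr10:39163795-39164044, both read 5′ to 3′ along the minus strand.
Ccn1: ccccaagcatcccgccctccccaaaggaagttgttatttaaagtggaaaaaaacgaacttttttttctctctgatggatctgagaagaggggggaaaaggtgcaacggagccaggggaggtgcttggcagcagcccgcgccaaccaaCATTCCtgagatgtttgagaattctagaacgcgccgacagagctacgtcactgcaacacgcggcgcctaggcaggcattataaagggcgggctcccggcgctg
Ccn6: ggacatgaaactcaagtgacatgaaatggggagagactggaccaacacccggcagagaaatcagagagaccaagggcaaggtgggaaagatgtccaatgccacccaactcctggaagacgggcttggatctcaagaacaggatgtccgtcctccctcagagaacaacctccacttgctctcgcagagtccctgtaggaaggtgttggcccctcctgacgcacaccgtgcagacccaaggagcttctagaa
The Ccn1 window holds 1 match, whose first base is at position -103 from the start site, and the Ccn6 window holds none. Of 32851 promoter windows of the same length, 12.6% hold the motif on either strand. A match of letters is not evidence of binding.

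Levels were deposited as RPKM, reads divided by exon length and by library depth, a scale per length on which genes can be compared within a sample. The steps that single reads leave in low values imply depths of 17.43 to 34.64 M reads in controls and 14.23 to 39.61 M in iPCKO samples. Yap1 was 11.49 to 13.21 RPKM in controls and 5.25 to 5.83 in iPCKO samples, whereas Wwtr1 was 53.78 to 71.25 and 60.27 to 63.5. The Wwtr1 level thus did not separate the groups, and a single value per gene cannot show whether the floxed exons were lost. The 10 pericyte markers summed to 3860.7 to 4760.8 RPKM in controls and 3446.8 to 4261.7 in iPCKO samples. By the thresholds given below, 2 were called lower and 3 higher, against 2.68% and 4.11% of all tested genes. Notch3 and Rgs5 were called lower, at 52.1% and 43.9% of the control mean. Cspg4, Kcnj8 and Abcc9 were called higher, at 208.4%, 202.4% and 222.2%. Pdgfrb was not called, at 1369 to 1666 RPKM in controls and 1193 to 1447 in iPCKO samples. Endothelial markers summed to 143.1 to 153.8 RPKM in controls and 148.1 to 162.4 in iPCKO samples, and epithelial markers to 461.9 to 511.3 and 579.3 to 630.8. Transcripts typical of endothelial and epithelial cells were thus present. No marker of any list was at 0 in every sample, but the chondrocyte gene Matn1 reached 0.01 RPKM only in control 3. Of 10 leukocyte markers 8 were called higher, against 4.11% of all tested genes. The 10 summed to 118.8 to 164.3 RPKM in controls and 512.8 to 4306.7 in iPCKO samples, most of it from the neutrophil genes S100a8 and S100a9. Of 6 platelet markers 5 were called higher, with sums of 7.8 to 9.8 and 22.8 to 64.7 RPKM. Fibroblast markers summed to 262.6 to 310.2 RPKM in controls and 344.6 to 434.6 in iPCKO samples. Of these 9 markers only Aspn was called, higher, with means of 114.42 and 217.01 RPKM. Pdgfra had means of 35.98 and 39.3, and Tcf21 of 52.6 and 35.93. Smooth muscle markers summed to 1318.4 to 1499.7 and 1443.7 to 1581.5 RPKM. Of these 8, 1 was called lower (Lmod1) and 2 higher (Cnn1 and Actg2, the latter with means of 73.7 and 221.97 RPKM). Mesothelial markers summed to 7.9 to 11.2 and 13.7 to 15.9 RPKM, and chondrocyte markers to 0.9 to 2.6 and 2.2 to 3.5. Y-linked transcripts were present in controls 1 and 3 (35.02 and 40.79 RPKM summed) and under 0.1 RPKM in control 2 and in all 3 iPCKO samples. The part of leukocyte RNA and of sex in the results below was not tested beyond the values given beside them.

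The members spanned a wide range of levels. In controls the order of the means was Ccn4, Ccn2, Ccn1, Ccn5, Ccn3 and Ccn6. Ccn4 averaged 124 ± 8.87 RPKM (SD, n = 3), which placed it 241st of all 21603 genes, and Ccn6 averaged 0.81 ± 0.17 RPKM. The control ranges of Ccn4 and Ccn2, of Ccn2 and Ccn1, and of Ccn1 and Ccn5 overlapped, although Ccn4 was above Ccn2 and Ccn2 above Ccn1 in each of the 3 samples. Ccn1 was above Ccn5 in 2 of 3 controls. In iPCKO samples Ccn3 and Ccn5 changed places, and Ccn3 was above Ccn5 in 3 of 3 samples without overlap. The rest of the order was as in controls.

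**Figure D1:**
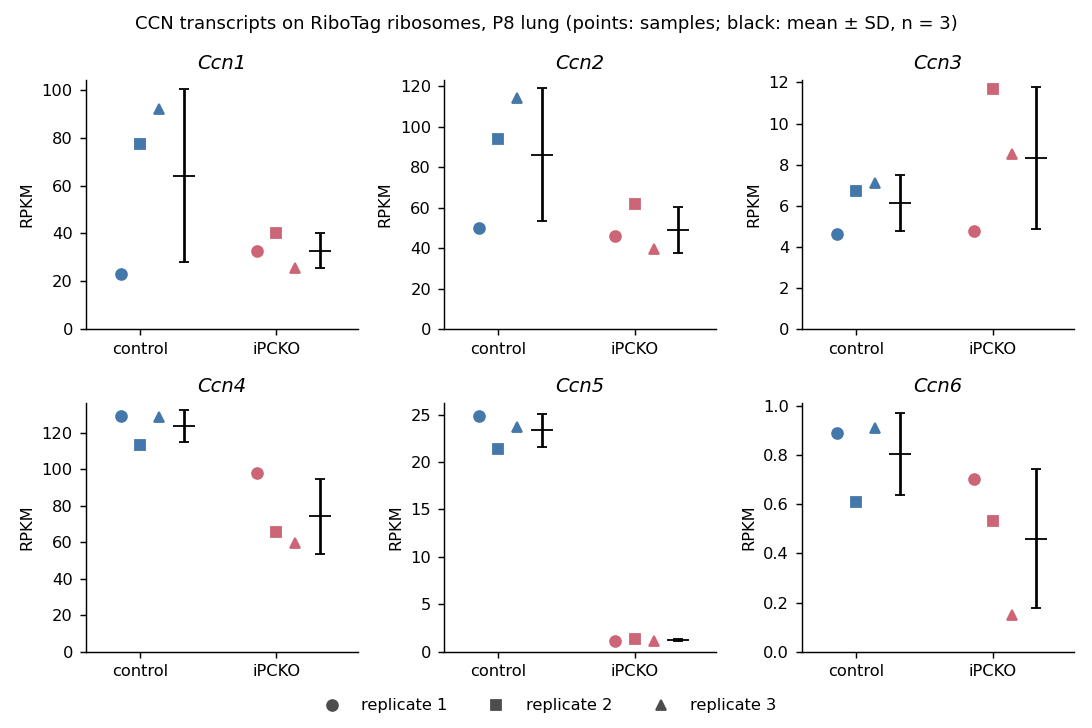
RPKM of the 6 CCN genes in each sample, with a separate linear axis from 0 for every gene. Blue points are controls, red points iPCKO samples, the marker shape gives the replicate number, and black bars are mean ± SD (n = 3). The groups are apart for Ccn4 and Ccn5, and control 1 lies below all iPCKO samples for Ccn1.

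To see which members differed between control and iPCKO pericytes, log2(RPKM + 0.1) was compared with limma over the 12034 genes that reached 1 RPKM in 3 or more samples. A gene was called where its Benjamini-Hochberg adjusted p was below 0.01 and its log2 fold change exceeded 0.5 in size. Of the 5 members tested, Ccn5 was called lower and no member was called higher. The background was 2.68% of all tested genes called lower and 4.11% called higher. At an unadjusted p below 0.05, 3 members were lower and none higher, where 13.6% of all tested genes were lower and 16.1% higher. The control and iPCKO values did not overlap for 2 members, Ccn4 and Ccn5, both lower, against 17.1% of all tested genes with iPCKO lower and 18.3% with iPCKO higher. Ccn6 was below the expression filter and was not tested.

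Ccn5, the short member without the cystine knot and known as an inhibitor of smooth muscle cell growth, was nearly lost from iPCKO ribosomes. It was 24.8, 21.4 and 23.7 RPKM in controls 1 to 3, and 1.15, 1.36 and 1.13 RPKM in iPCKO samples 1 to 3. Every control was far above every iPCKO sample, and both groups were tight. The mean fell from 23.3 ± 1.75 to 1.22 ± 0.13 RPKM (SD, n = 3 each), 5.2% of the control mean or 19.2-fold lower. The log2 fold change was -4.16 (SE 0.11, 95% interval -4.4 to -3.91, adjusted p = 9e-07, limma). It was the 6th largest decrease among all 12034 tested genes, and Ccn5 moved from rank 2304 to rank 11746 in level. About 31 to 104 reads stood behind the iPCKO values and 718 to 1583 behind the control values, approximate numbers because Ccn5 has 2 annotated transcripts. A term for Y-linked transcripts leaves only control 2, the control without them, to set against the iPCKO samples. Its 21.4 RPKM gave a log2 fold change of -4.03. Across the iPCKO samples the summed leukocyte markers ran from 512.8 to 4306.7 RPKM while Ccn5 stayed between 1.13 and 1.36.

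Ccn4, a Wnt-inducible member known for its role in mesenchymal cells, was the most abundant CCN transcript in both groups. Its levels were 129, 114 and 128 RPKM in controls and 97.9, 65.7 and 59.6 RPKM in iPCKO samples. The groups did not overlap, and iPCKO 1 was nearest to the controls. The means were 124 ± 8.87 and 74.4 ± 20.57 RPKM (SD, n = 3 each), a log2 fold change of -0.77 (SE 0.18, 95% interval -1.17 to -0.37). With an adjusted p of 0.021 in limma, the difference was past 0.05 but missed the threshold of 0.01. The adjusted p rose above 0.05 without control 1 (0.057), control 3 (0.077), iPCKO 2 (0.075) or iPCKO 3 (0.068), and was 0.04 without control 2. The difference passed 0.01 without iPCKO 1 (-0.98, adjusted p = 0.00073) and in the fits with a replicate block, quantile normalization or sample weights. With a term for Y-linked transcripts, which leaves control 2 as the only control, it was -0.64. In bulk RNA of this kind, fewer cells with a transcript and less transcript per cell cannot be told apart. The iPCKO samples followed the order of their leukocyte marker sums in reverse, from 97.9 RPKM of Ccn4 in iPCKO 1, the lowest sum, to 59.6 in iPCKO 3, the highest.

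Ccn1 and Ccn2, the YAP1/TAZ targets most used as reporters of pathway activity, were lower on average but not called. Ccn1, an angiogenic integrin ligand, was 23.1, 77.5 and 91.9 RPKM in controls and 32.8, 40.0 and 25.5 RPKM in iPCKO samples. Controls 2 and 3 were above all iPCKO samples, and control 1 was below them all. The means of 64.2 ± 36.3 and 32.8 ± 7.29 RPKM (SD, n = 3 each) gave a log2 fold change of -0.76 with a wide interval, -1.8 to 0.27 (SE 0.45, adjusted p = 0.3, limma). Without control 1 it was -1.39 and was called (adjusted p = 0.0055). Leaving out control 2 or control 3 brought it to -0.51 (adjusted p = 0.59) or -0.39 (adjusted p = 0.67). From 732 to 6428 reads stood behind each value.

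Ccn2, a profibrotic matrix regulator that binds TGF-β and BMPs, had the same pattern in a milder form. Levels were 50.0, 94.2 and 114 RPKM in controls and 45.9, 61.6 and 39.4 RPKM in iPCKO samples. Here control 1 fell between the iPCKO samples, and the other controls were above them. Mean levels were 86.2 ± 33.0 and 49.0 ± 11.4 RPKM (SD, n = 3 each), and the log2 fold change was -0.76 (SE 0.29, 95% interval -1.41 to -0.1, adjusted p = 0.12, limma). Without control 1 it was -1.11 (adjusted p = 0.013), still short of the threshold. Sample weights were the one alternative under which Ccn2 was called (-0.78, adjusted p = 0.0094). Controls 1 and 3, which carried Y-linked transcripts, had the lowest and the highest control levels of both genes. With a term for these transcripts the log2 fold changes were -1.26 for Ccn1 and -0.97 for Ccn2. Both rest on control 2 as the only control.

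Ccn3, a member that binds NOTCH1 and is often opposed to Ccn2 in fibrosis, was the one tested member with a higher mean in iPCKO samples. It was 4.6, 6.72 and 7.12 RPKM in controls against 4.76, 11.7 and 8.51 RPKM in iPCKO samples. The groups overlapped through iPCKO 1. With means of 6.15 ± 1.36 and 8.31 ± 3.46 RPKM (SD, n = 3 each), the log2 fold change was 0.36 (SE 0.3, 95% interval -0.32 to 1.04, adjusted p = 0.46, limma). Without iPCKO 2 the log2 fold change was 0.08, and without iPCKO 1 it was 0.71 (adjusted p = 0.9 and 0.053, limma).

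Ccn6, which acts in skeletal growth, was at the edge of detection. Its values were 0.89, 0.61 and 0.91 RPKM in controls and 0.7, 0.53 and 0.15 RPKM in iPCKO samples, with 3 reads in iPCKO 3 and 45 in control 3 at the extremes. The groups overlapped, and the lowest value came from the sample with the fewest reads. In a fit without the filter, over 17678 genes, the log2 fold change was -0.83 (95% interval -1.81 to 0.14, adjusted p = 0.27, limma).

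**Figure D2:**
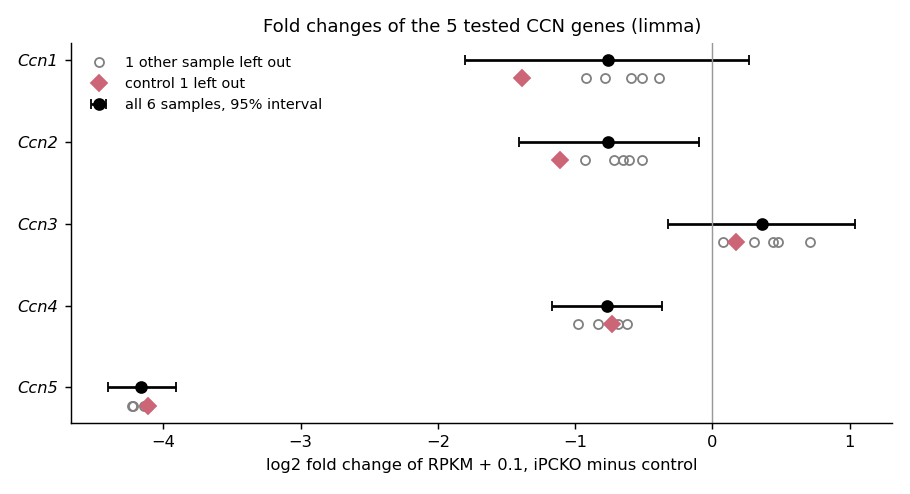
Log2 fold changes (horizontal axis, iPCKO minus control, RPKM + 0.1) of the 5 tested CCN genes from limma. Black points with bars are estimates from 6 samples with 95% intervals, open circles leave out 1 sample other than control 1, and red diamonds leave out control 1. Ccn5 stays between -4.23 and -4.11, while Ccn1 ranges from -1.39 to -0.39.

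Ccn1, Ccn2 and Ccn4 had nearly the same log2 fold change, -0.76, -0.76 and -0.77, but different errors. The members were next contrasted directly, through the log2 ratio of each of the 10 pairs of tested members within a sample. With 3 samples against 3, the two-sided exact permutation test cannot give p under 0.1, so none of the pairs could pass 0.05. The ratio of Ccn4 to Ccn5 was 2.40 ± 0.03 in controls and 5.79 ± 0.43 in iPCKO samples (log2, SD, n = 3 each), a difference of 3.39 without overlap. Ratios of Ccn1, Ccn2 and Ccn3 to Ccn5 rose in the same way, by 3.39, 3.40 and 4.52, again without overlap. For each of these 4 pairs the exact permutation p was 0.1, adjusted 0.2 over the 10 pairs. The 4 pairs share Ccn5, so their separation largely repeats its decrease. In controls the ratio of Ccn4 to Ccn5 ran only from 2.38 to 2.43.

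The ratio of Ccn2 to Ccn3 was 3.73 ± 0.29 in controls and 2.61 ± 0.56 in iPCKO samples (log2, SD, n = 3 each), a difference of -1.12 without overlap (exact p = 0.1, adjusted 0.2). For Ccn1 to Ccn3 the difference was -1.13, but the groups overlapped (exact p = 0.2, adjusted 0.33). Ccn3 to Ccn4 differed by 1.13, also with overlap (exact p = 0.3, adjusted 0.43). Ratios among Ccn1, Ccn2 and Ccn4 differed by 0.01 or less in size between the group means, with SDs of up to 1.14 in controls, so these ratios do not show that the 3 members changed alike.

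Summed over the 6 members, CCN transcripts were 232.7, 313.9 and 366.6 RPKM in controls and 183.2, 180.9 and 134.3 RPKM in iPCKO samples. All controls were above all iPCKO samples. The mean total was 304.4 ± 67.5 and 166.1 ± 27.6 RPKM (SD, n = 3 each), a log2 difference of -0.86 with exact p = 0.1, the smallest the design allows. Ccn5 made up 8.0 ± 2.3% of the total in controls and 0.7 ± 0.1% in iPCKO samples, and Ccn3 2.0 ± 0.1% and 5.1 ± 2.2%. Neither share overlapped between groups (exact p = 0.1, adjusted 0.3 over 6 members, for each). For Ccn3 the gap was narrow, 2.6% in iPCKO 1 against 2.14% in control 2. Its RPKM overlapped between groups, while the total that its share is taken from was lower in iPCKO samples. The shares of Ccn4 (42.3 ± 11.5% and 44.7 ± 8.6%), Ccn2 (27.6 ± 5.3% and 29.5 ± 4.5%) and Ccn1 (19.9 ± 8.6% and 19.7 ± 2.2%) overlapped. In control 1, Ccn4 alone was 55.58% of the total and Ccn1 9.91%, against 35.05 to 36.17% and 24.69 to 25.07% in the other controls.

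**Figure D3:**
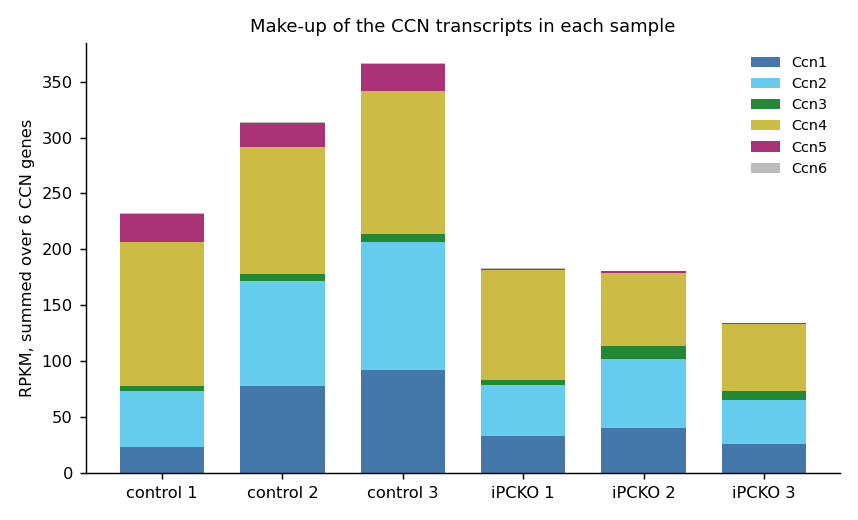
Stacked bars of RPKM for the 6 CCN genes in each sample (vertical axis from 0, 1 bar per sample). Totals run from 232.7 to 366.6 RPKM in controls and from 134.3 to 183.2 in iPCKO samples, and the Ccn5 segment is nearly absent from the latter.

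Genes of the surrounding pathways are given for context. Of 20 YAP/TAZ target genes besides the CCN members, 3 were called lower and none higher (all tested genes, 2.68% and 4.11%). At an unadjusted p below 0.05 in limma, 9 of the 20 were lower and 2 higher (all tested genes, 13.6% and 16.1%). The median log2 fold change of the 20 was -0.12, against a median near 0 over all tested genes. Tgfb2, a TGF-β ligand, was 45.91 to 49.45 RPKM in controls and 12.4 to 14.83 in iPCKO samples, a log2 fold change of -1.84. Lats2, the kinase that restrains YAP1 and TAZ, fell by 1.31 on the log2 scale, and Amotl2, an angiomotin that binds YAP1, by 0.74. Ankrd1, another common reporter of the pathway, was 1.09 to 1.88 RPKM in controls and 1.12 to 1.47 in iPCKO samples and was not called. Amotl2 was not called without control 3 (adjusted p = 0.011, limma), which left 2 genes called lower, and 4 were called lower without iPCKO 1. With a term for Y-linked transcripts, which leaves control 2 as the only control, the log2 fold change of Amotl2 was -0.85. Without iPCKO 3, 1 gene of the list was called higher.

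Of 8 TEAD factors and cofactors, 2 were called lower, Yap1 and Vgll3, against 2.68% of all tested genes. Yap1 (log2 fold change -1.12) is itself a gene that the design targets. Vgll3, a TEAD cofactor, was 4.17 to 5.07 RPKM in controls and 2.0 to 2.53 in iPCKO samples (log2 fold change -0.99). The log2 fold change of Vgll3 was -0.91 with a term for Y-linked transcripts, which leaves control 2 as the only control. No gene of this list was called higher. At an unadjusted p below 0.05 in limma, 3 of the list were lower and none higher (all tested genes, 13.6% and 16.1%). Tead1, a TEAD transcription factor, was 13.98 to 18.19 RPKM in controls and 12.06 to 12.17 in iPCKO samples (adjusted p = 0.045, limma) and was not called.

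Receptors and binding partners of CCN proteins were mostly present. Of 17 genes, 16 were tested, and 3 were called higher and none lower (all tested genes, 4.11% and 2.68%). At an unadjusted p below 0.05 in limma, 8 were higher and 3 lower (all tested genes, 16.1% and 13.6%). Itgb3, the β3 integrin that pairs with αv to bind CCN1 and CCN2, was 3.91 to 4.83 RPKM in controls and 10.65 to 13.18 in iPCKO samples, a log2 fold change of 1.4. Itga5, the fibronectin receptor subunit, rose by 0.71 on the log2 scale, from 16.78 to 18.88 RPKM up to 28.24 to 30.83. Itgb2, a leukocyte integrin, was 3.51 to 6.65 RPKM in controls and 10.38, 17.87 and 23.58 in iPCKO samples 1 to 3, in the order of the leukocyte marker sums. Itgb3 is also expressed by platelets, whose marker Pf4 went from 1.97 to 3.64 RPKM up to 8.95 to 21.43. Whether these integrin transcripts came from pericytes was not tested. Itgb1, the shared β1 subunit, was 324 to 368 RPKM in controls and 351 to 399 in iPCKO samples. For Lrp6 (29.99 to 32.38 and 24.52 to 28.9 RPKM) and Itga6 (35.36 to 42.42 and 26.94 to 30.24 RPKM), iPCKO values lay under all control values, but neither gene was called. Itgb3 and Itga5 were called in every fit with a sample left out. Itgb2 was not called without control 1, control 3, iPCKO 2 or iPCKO 3. Each of these leave-outs had 2 genes called higher, and the fit without iPCKO 1 had 5. With a term for Y-linked transcripts, on control 2 alone, log2 fold changes were 1.32 for Itgb3, 0.8 for Itga5 and 1.29 for Itgb2.

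Among 9 tested Wnt/β-catenin target genes (of 12 listed), Nkd2, an antagonist of Wnt signalling, was called lower (7.17 ± 0.9 to 3.82 ± 0.23 RPKM, SD, n = 3 each, log2 fold change -0.88). Notum, a secreted Wnt deacylase, was called higher (3.32 ± 0.84 to 8.68 ± 1.57 RPKM, log2 fold change 1.37). Of all tested genes, 2.68% were called lower and 4.11% higher. At an unadjusted p below 0.05 in limma, 1 of the 9 was lower and 1 higher (all tested genes, 13.6% and 16.1%). These counts do not set the list apart from other genes. Axin2, the usual readout of the pathway, was 19.17 to 21.57 RPKM in controls and 13.9 to 19.81 in iPCKO samples and was not called. The Nkd2 call was lost without control 3, and the Notum call without control 1 or control 3, each leaving 0 calls in that direction. With a term for Y-linked transcripts, on control 2 as the only control, log2 fold changes were -0.67 for Nkd2 and 0.99 for Notum. Of 10 TGF-β response genes, Ltbp2, a matrix protein of the latent TGF-β binding protein family, was called lower, at 380 to 450 RPKM in controls and 182 to 217 in iPCKO samples (log2 fold change -1.0). Its log2 fold change was -0.97 with the term for Y-linked transcripts, on control 2 as the only control. None of the 10 was called higher, where 2.68% of all tested genes were called lower and 4.11% higher. At an unadjusted p below 0.05 in limma, 1 was lower and 3 were higher (all tested genes, 13.6% and 16.1%).

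**Figure D4:**
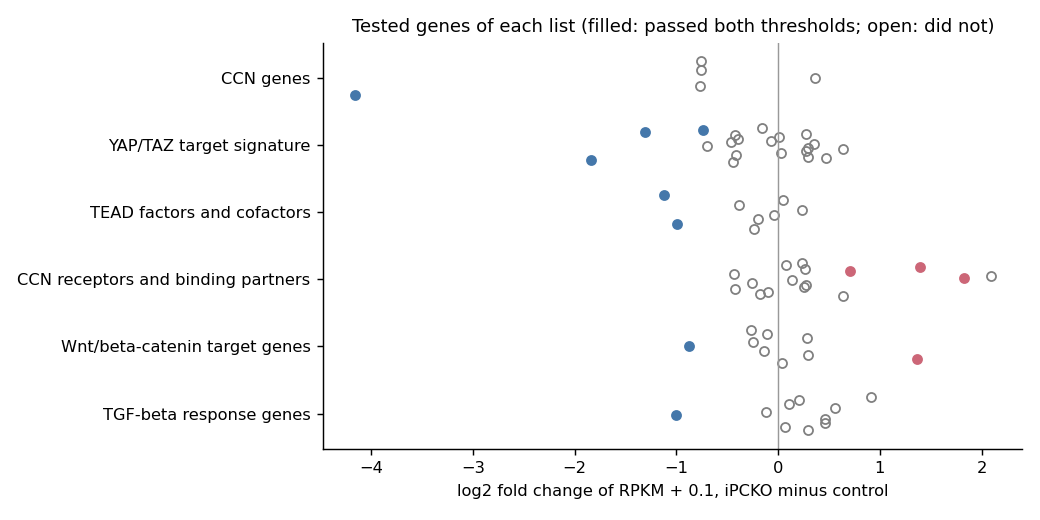
Log2 fold changes (horizontal axis, iPCKO minus control, RPKM + 0.1) of the tested genes of each list, 1 point per gene and with vertical spread only to separate points. Filled blue points were called lower, filled red points called higher, and open points were not called. Ccn5, at -4.16, is the largest decrease shown, followed by Tgfb2 at -1.84, and Itgam, which was not called, is farthest to the right at 2.09.

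For each tested member, the genes with the most similar profile over the 6 samples were found by the root mean square difference of log2(RPKM + 0.1) after each gene was centred on its own mean. Nearest to Ccn1 was Ccn2, at 0.28, followed by Tinag at 0.35 and Banp at 0.36. The nearest genes to Ccn2 were Zfp72 (0.21), Nexmif (0.21) and Veph1 (0.22), all at low levels of under 5 RPKM. Genes close to Ccn3 were Irf9 (0.11) and 2610028H24Rik (0.17), neither of which was called. Ccn4 was nearest to Syp (0.07), Cadm1 (0.1) and Amt (0.1), of which Amt was called lower. Ccn5 was nearest to Gprc6a (0.15) and Gal3st2 (0.3), both of which were also called lower, with log2 fold changes of -4.33 and -4.49. These are likenesses over 6 samples that share libraries and groups, and they carry no test.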

How the data were processed

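Ribosome-associated RNA of 3 control and 3 Yap1,Wwtr1 iPCKO lungs was sequenced from stranded total RNA libraries. Per the labels and the study's methods, the authors mapped reads to mm10 (GRCm38) with TopHat, counted them with HTSeq 0.6.1 and used DESeq2. They deposited RPKM per Ensembl gene, 1 file per sample, and the exon length used is not given in the sources used here. RPKM is not a count, so log2(RPKM + 0.1) was fitted with limma 3.58.1 (lmFit, eBayes with trend, R 4.3.3) without further scaling, for the 12034 genes reaching 1 RPKM in 3 or more samples. Calls needed an adjusted p below 0.01 and a log2 fold change over 0.5 in size. Totals, shares and ratios used two-sided exact permutation tests (Python 3.11.15, scipy 1.17.1). Nothing in the labels says that replicates are separate litters, and p-values measure only the spread between these samples.

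The members and lists were chosen with earlier results of these data known. Genes named are the members, Yap1 and Wwtr1, called genes of each list with at most 4 others, defining markers and the 3 nearest profiles per member, some of which are not reported here. Symbols, 21375 of 21603, and gene models are those of GENCODE M21 (GRCm38). Read numbers were inferred from single-read steps, with 74.6 to 77.1% of low values of single-transcript genes (10 reads or fewer) within 0.02 reads of a whole number, so RPKM were not turned back into counts for testing. They cover counting error only. On simulated data for this comparison with 12034 genes, 67.5% of 200 genes changed by 1 and 95.5% changed by 2 (log2) were recovered, with 1 and 4 false calls. Alternatives were a replicate block, pseudocounts of 1 and 0.01, no filter, median-ratio scaling, quantile normalization, sample weights, other thresholds and each sample left out. Y-linked transcripts as a covariate were added after seeing the data. That covariate sets control 2 alone against the iPCKO samples, so only its effect sizes are given.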

Additional observations from a re-analysis of the deposited data

How the results depend on the processing

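Leaving aside the Y-linked covariate, the decrease of Ccn5 was called under every alternative run. Its log2 fold changes ran from -4.25 (pseudocount 0.01) to -3.46 (pseudocount 1). Leaving out each sample in turn gave -4.23 to -4.11 for Ccn5, -0.98 to -0.62 for Ccn4, -1.39 to -0.39 for Ccn1 and -1.11 to -0.51 for Ccn2. Ccn1 was then called without control 1 and Ccn4 without iPCKO 1, so 1 to 2 members were called lower. Ccn4 was also called with the replicate block (-0.77, adjusted p = 0.009), quantile normalization (-0.86, 0.005) and sample weights (-0.87, 0.00031), and Ccn2 with sample weights (-0.78, 0.0094). This made 2 members called lower with the replicate block, quantile normalization or an adjusted p below 0.05, and 3 with sample weights. The cause of these shifts was not tested. The main fit did not pair samples by replicate number. Deviations of samples with the same number correlated between 0.02 and 0.24 (3 pairs), and those with different numbers between -0.3 and 0.27 (6 pairs). So few pairs cannot show whether the numbers pair the samples. Wwtr1 went from 0.05 to -0.03 without control 2 (range -0.03 to 0.17).

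With a pseudocount of 1, the ratio differences to Ccn5 were 2.71 for Ccn2, 3.78 for Ccn3 and 2.70 for Ccn4, because the pseudocount raises the low iPCKO values. For the lists, leaving out samples gave 2 to 4 YAP/TAZ targets called lower and 0 to 1 called higher, 2 to 5 CCN partners called higher and 0 to 1 Wnt targets called in each direction. The replicate block gave 1 YAP/TAZ target called higher. Calls with Y-linked transcripts as a covariate rest on control 2 as the only control and are not counted. Genes called in all numbered 817, against 922 with the block and 1590 with sample weights. With a sample left out they numbered 382 (without control 3) to 899 (without iPCKO 1). Scaling moved the median of all genes by 0.032 at most.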
